A study of Mus musculus with 12 samples.

Results

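The Cd209 lectins of the mouse are a family of 7 neighbouring genes on chromosome 8, Cd209a to Cd209g, related to human DC-SIGN. All rows of the deposited gene table that carried one of these 7 symbols were taken, which gave 7 of 17358 genes. They were measured in perivascular macrophages, the macrophages that line blood vessels in the brain, of C57BL mice without any genotype or treatment named in the labels. Aged mice of 18 months gave 5 libraries and young adult mice of 3 months gave 7 libraries. The design text calls the libraries biological replicates and does not say how many animals went into each, so p-values measure the spread between libraries. RNA was copied with the SMART-seq2 method, which primes on the poly(A) tail, amplifies full-length cDNA and keeps neither strand nor molecular identifiers.

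C-type lectins of this family are membrane receptors with a calcium-dependent sugar-binding domain. In some members this domain binds mannose- or fucose-bearing sugars on microbes and on the body's own glycoproteins. In mouse, Cd209a (DC-SIGN, also CIRE) is best known from dendritic cells, and Cd209b (SIGNR1) from macrophages of the splenic marginal zone, where it captures bacterial polysaccharides. Cd209d (SIGNR3) binds mycobacteria in mouse, and Cd209f is used as a marker of macrophages at the borders of the brain. In human DC-SIGN, ligand binding is passed on through kinases and small GTPases to NF-kB.

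The libraries were deep, at 23214816 to 30505439 estimated counts in aged and 25864088 to 30628789 in young libraries, so a floor of 3 counts lay between 0.0980 and 0.129 CPM, which are counts scaled by the library total. Levels below are CPM adjusted with TMM factors for library composition, or FPKM, which also divides by transcript length and was used to compare one gene with another. All 12 listed perivascular macrophage markers (Mrc1, Cd163, Lyve1, Pf4 and others) passed the filter on low counts, with summed levels of 12943 to 19364 CPM in aged and 13567 to 21363 CPM in young libraries. All 10 microglia markers also passed, at 4265 to 6479 CPM in aged and 4251 to 7831 CPM in young libraries. Of these 10, 8 had a negative log2 fold change (aged over young), the median over all 10 was -0.46, and none was called. In edgeR, 2 of the 10 had an unadjusted p under 0.05, in opposite directions. They were Fcrls, lower in aged libraries (log2 fold change -0.61), and Siglech, higher in aged libraries (0.50). Of all tested genes, 5.97% had an unadjusted p under 0.05 in edgeR and 0.0105% were called. A positive log2 fold change was found for 49.5% of them, and the median was -0.01. The part of microglia in the Cd209 values was not tested. In bulk RNA, fewer cells of a type and less RNA per cell cannot be told apart. On the first principal component of all tested genes, aged 1, aged 3 and aged 4 were at -76.1, -95.1 and -104.8. No other library was below 10.8 there. Fold changes of Cd209 members that moved by over 1.5 times when these aged libraries were omitted are therefore given both ways. Fold changes of other genes are given over all libraries only, and how far they moved was not compared. The common biological coefficient of variation was 1.33 over all libraries.

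Of the 7 members, 6 passed the filter and each of these had counts in all 12 libraries. Fold changes are aged over young on the log2 scale, from edgeR's quasi-likelihood test with Benjamini-Hochberg adjustment over 9550 genes. None of the 6 passed an adjusted p of 0.05, and 0.0105% of all tested genes did, which is 1 gene. Before adjustment, edgeR's p was under 0.05 for Cd209a and Cd209d, both higher in aged libraries. That held for 5.97% of all tested genes in either direction and for 3.85% with the aged libraries higher. The log2 fold change was positive for 5 of the 6, where 49.5% of all genes had a positive one. The median over the 6 was 0.65, against -0.01 over all genes. No member separated the groups without overlap, whereas 0.597% of all genes did, 0.325% with the aged libraries higher.

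**Figure D1:**
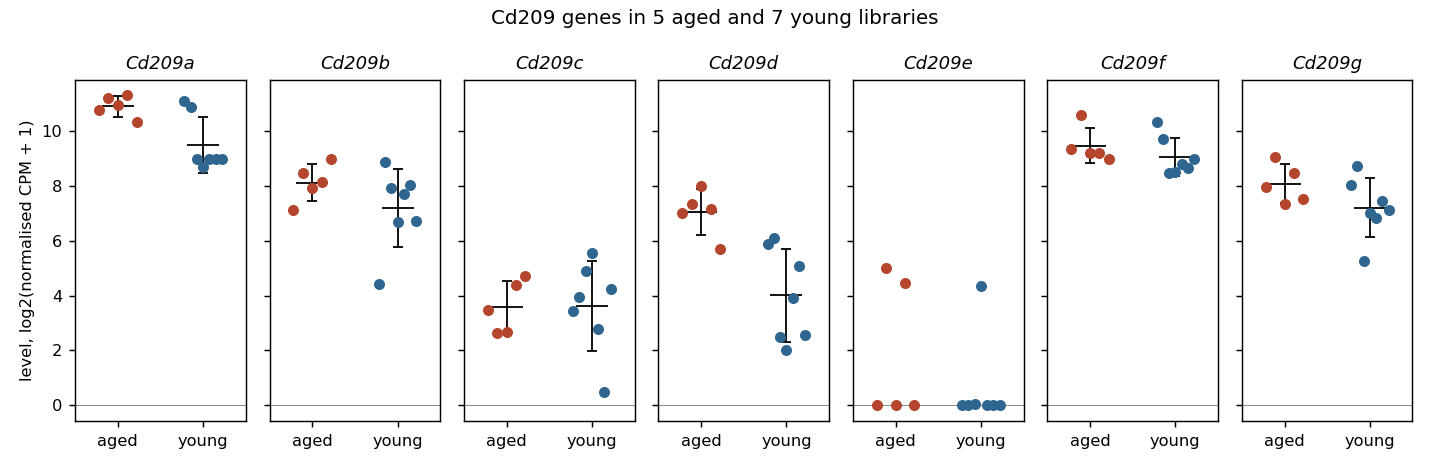
Level of each Cd209 gene in every library as log2(TMM-normalised CPM + 1), aged left of young, 1 point per library, with the mean and SD of each group as bars except for Cd209e. For Cd209a, young libraries 3 to 7 (405 to 496 CPM) sit below the other 7 libraries (1272 to 2503 CPM).

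Cd209a was the most abundant member, with a median of 1059 FPKM over the 12 libraries, above 99.1% of the tested genes on that scale. Cd209f followed with a median of 453 FPKM, Cd209g with 181, Cd209b with 124, Cd209d with 69.3 and Cd209c with 11.8 FPKM, and Cd209e had a median of 0. The order was firm for some neighbours only. Cd209a exceeded Cd209f in 5 of 5 aged and 3 of 7 young libraries, while Cd209f exceeded Cd209g in all 5 aged and all 7 young libraries. Cd209b exceeded Cd209d in 1 of 5 aged and 6 of 7 young libraries, so their order was reversed in most aged libraries. Cd209g exceeded Cd209b in 4 of 5 aged and 5 of 7 young libraries, and Cd209d exceeded Cd209c in 5 of 5 aged and 4 of 7 young libraries.

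Cd209a (Entrez 170786, chr8:3743395-3748984, GRCm38.p6) had 1709, 2320, 1933, 2503 and 1272 CPM in aged libraries 1 to 5. In young libraries 1 to 7 it had 2164, 1866, 495.9, 404.9, 495.9, 495.4 and 493.7 CPM. The young libraries thus lay at a higher and a lower level, with a gap of 1.91 on the log2 scale and no library between them, and young libraries 1 and 2 fell within the aged range. Cd209a averaged 1947 ± 490.1 CPM in aged and 916.5 ± 755.9 CPM in young libraries (SD, n = 5 and 7). The log2 fold change was 1.09 ± 0.42 (SE), with an unadjusted p of 0.0187 and an adjusted p of 0.589 (edgeR). The SD of log2 levels was 0.39 in aged and 1.02 in young libraries. The median over all tested genes was 1.37 in aged and 1.196 in young libraries. That median covers genes of every level, and Cd209a lay above 99.1% of them by median FPKM. It is therefore no measure of the usual spread at the level of Cd209a. The 5 young libraries at the lower level spread by only 40.4 CPM (SD) around a mean of 477.2 CPM.

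The summed perivascular macrophage markers were also at 21363 and 18974 CPM in young libraries 1 and 2, above the 13567 to 16850 CPM of young libraries 3 to 7. Aged library 5 had the lowest such sum of all libraries, at 12943 CPM, with 1272 CPM of Cd209a. The part of these markers in the Cd209a difference was not tested. Dendritic cells are a further source of Cd209a in other tissues. Of 15 other dendritic cell markers, 4 passed the filter, and their summed level was 22.5 to 88.5 CPM in aged and 10.6 to 114.9 CPM in young libraries. The 4 were Zbtb46 at 14.2 ± 10.8 CPM in aged and 10.2 ± 9.56 CPM in young libraries, Batf3 at 6.05 ± 8.32 CPM in aged and 7.19 ± 4.63 CPM in young libraries, Kmo at 6.77 ± 11.5 CPM in aged and 5.82 ± 6.71 CPM in young libraries, and Ccr2 (SD, n = 5 and 7). Of the other 11, Xcr1 reached 538 counts and had at least 3 in 9 libraries, while Napsa, Tnip3 and H2-DMb2 reached 905, 602 and 564 counts and had at least 3 in 3, 2 and 4 libraries. Ccr7 and Cd24a reached 14 and 13 counts, Flt3 3, Cd7 2, and Clec9a, Itgax and Klrb1b 1 count in any library. The part of dendritic cells in the Cd209a difference was not tested. The dendritic cell sum in young libraries 1 and 2 was 84.6 and 17.7 CPM, on either side of the 45.9 CPM median of young libraries. Monocyte markers (2 of 10 tested) summed to 132 to 385 CPM in aged and 37.0 to 136 CPM in young libraries, mostly through Ms4a4c at 228.9 ± 97.8 CPM in aged and 68.2 ± 38.1 CPM in young libraries (SD, n = 5 and 7; edgeR adjusted p = 0.197), with Ccr2 at 17.1 CPM in aged and 14.1 CPM in young libraries on average. Vcan, Fn1 and Cd300e, which mark monocytes, had at most 1 count in any library. The 1 called gene was Ttr, a choroid plexus marker, at 594.7 ± 375.8 CPM in aged and 93.01 ± 34.8 CPM in young libraries (SD, n = 5 and 7; edgeR adjusted p = 0.0297). Choroid plexus markers (4 of 10 tested) summed to 257 to 1314 CPM in aged and 63.2 to 177 CPM in young libraries. Ttr was the largest part on average. The other tested markers, Enpp2, Kcnj13 and Prlr, averaged 116.9, 40.8 and 2.66 CPM in aged and 10.2, 0.375 and 0.402 CPM in young libraries. Of those not tested, Clic6, Folr1, Otx2 and Kl reached 677, 450, 230 and 34 counts, and Cldn2 and Aqp1 at most 1. The part of choroid plexus markers was likewise not tested.

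Cd209d (Entrez 170779, chr8:3871824-3878548) was lower than Cd209a and likewise had its highest young values in young libraries 1 and 2. It had 127.3, 158.3, 249.6, 142.7 and 50.5 CPM in aged libraries 1 to 5. In young libraries 1 to 7 it had 57.7, 67.3, 4.64, 3.09, 14.01, 32.8 and 4.87 CPM. Young libraries 1 and 2 exceeded aged library 5 and no other aged library, and the other 5 young libraries lay below all aged ones. The means were 145.7 ± 71.4 CPM in aged and 26.4 ± 26.9 CPM in young libraries (SD, n = 5 and 7), a ratio of 5.53. The log2 fold change was 2.47 ± 0.71 (SE), with an unadjusted p of 0.0030 and an adjusted p of 0.312 (edgeR), and it ranked 92 of 9550 genes by p. DESeq2 called it (log2 fold change 2.42, adjusted p = 0.0493), as it did 1.27% of genes (0.674% higher in aged libraries), and so did edgeR's bias-adjusted mode (2.49, adjusted p = 0.0144), which called 0.398% of genes (0.377% higher in aged libraries). Limma with voom gave an adjusted p of 0.272, and over all alternatives the adjusted p ran between 0.0144 and 0.9997. Omitting aged libraries 1, 3 and 4 gave 2.0 on that scale, with an unadjusted p of 0.0577.

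**Figure D2:**
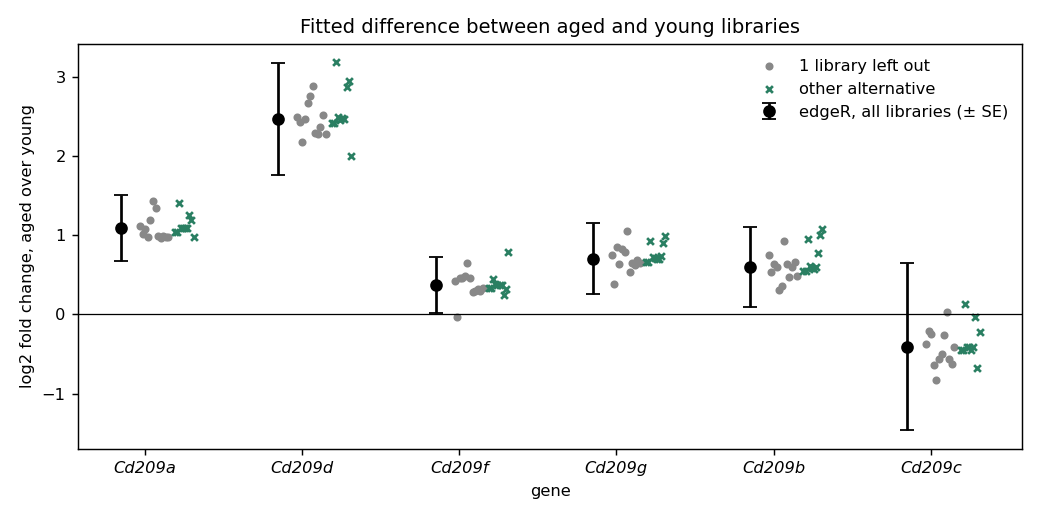
Log2 fold change, aged over young, of the 6 tested Cd209 genes: black points with 1 SE are edgeR on all libraries, grey points have 1 library left out, and green crosses are the other alternatives. Cd209d is the highest at 2.47, Cd209a follows at 1.09, and values on both sides of 0 appear for Cd209c and Cd209f.

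Promoters of Cd209a and Cd209d, the members with an unadjusted p under 0.05 in edgeR, are printed below from RefSeq GRCm38.p6, each 300 bases on the minus strand (chr8:3748935-3749234 and chr8:3878450-3878749), from 250 bases before to 50 bases after the start site. Capitals mark matches, on either strand, to the letters GAGGAA for PU.1, TGANTCA for AP-1, TGCTGA for the core of a MAF site or TATAAA for a TATA box. No matches overlapped. An IRF motif, GAAA and GAAA with any 2 bases between, was in none of the 7 promoters and in 3.44% of all. A STAT6 motif, TTC and GAA with any 4 bases between, was in the Cd209e promoter alone and in 6.95% of all.
Cd209a: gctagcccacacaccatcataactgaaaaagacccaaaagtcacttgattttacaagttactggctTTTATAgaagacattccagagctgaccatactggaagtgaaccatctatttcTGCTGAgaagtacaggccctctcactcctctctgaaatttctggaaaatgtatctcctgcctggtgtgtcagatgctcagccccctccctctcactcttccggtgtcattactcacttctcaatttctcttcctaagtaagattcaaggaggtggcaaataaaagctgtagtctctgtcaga
Cd209d: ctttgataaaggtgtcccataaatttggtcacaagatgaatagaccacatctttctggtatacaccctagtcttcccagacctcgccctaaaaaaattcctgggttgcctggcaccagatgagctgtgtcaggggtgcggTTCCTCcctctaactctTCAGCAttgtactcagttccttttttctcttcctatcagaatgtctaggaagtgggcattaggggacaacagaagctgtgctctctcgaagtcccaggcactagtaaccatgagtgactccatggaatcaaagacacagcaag

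Both windows held the MAF core, at position -132 of Cd209a and, on the other strand, at position -93 of Cd209d. That core occurs in 19.5% of all 32851 RefSeq promoters of this length. Cd209d also held the PU.1 letters on the other strand at position -110, which 28.3% of promoters do, and Cd209a held TATAAA on the other strand at position -184. The best local match between these promoters was 73.7% identity over 76 bases. Their start sites lie 129.5 kb apart.

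Cd209f and Cd209g are near-identical copies, and their counts are estimates that divide shared reads. Their transcripts were 90.3% identical over 1181 bases, and 29.2% of the 100-base words of Cd209f occurred in Cd209g and in no other gene. Every other pair of members was 64.1% to 77.6% identical over the part that aligned. Estimated counts of Cd209f and of Cd209g were not whole numbers in 12 of 12 libraries, whereas those of Cd209a, Cd209b, Cd209d and Cd209e were whole in every library, to within 0.005. Of all tested genes, 76.3% were whole in every library. The split of reads between Cd209f and Cd209g is therefore uncertain, and their sum does not depend on it.

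Cd209f (Entrez 69142, chr8:4102784-4105838) had 643.3, 1520, 580.4, 577.9 and 506.5 CPM in aged libraries 1 to 5. In young libraries 1 to 7 it had 1266, 827.9, 346.8, 362.9, 438.9, 399.5 and 497.6 CPM. Aged library 2 was far above the other aged libraries, and young libraries 1 and 2 exceeded the other 4 aged ones. The means were 765.7 ± 424.6 CPM in aged and 591.5 ± 339.7 CPM in young libraries (SD, n = 5 and 7). The log2 fold change was 0.37 ± 0.36 (SE; edgeR adjusted p = 0.999). Omitting aged library 2 gave -0.03, and omitting aged libraries 1, 3 and 4 gave 0.79, so both its sign and its size rested on which aged libraries were included.

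Cd209g (Entrez 70192, chr8:4134246-4137707) had 249.3, 530.6, 161.7, 353.1 and 182.9 CPM in aged libraries 1 to 5. In young libraries 1 to 7 it had 257.4, 424.3, 37.4, 128.3, 113.0, 171.5 and 136.0 CPM. As with Cd209a and Cd209f, young libraries 1 and 2 were the highest of their group and the groups overlapped. Means of 295.5 ± 151.1 CPM in aged and 181.1 ± 125.9 CPM in young libraries (SD, n = 5 and 7) gave a log2 fold change of 0.71 ± 0.45 (SE; edgeR adjusted p = 0.999). The log2 fold change was 0.39 without aged library 2 and 1.06 without young library 2. Cd209f and Cd209g together reached 689.4 to 2051 CPM in aged and 384.2 to 1524 CPM in young libraries. Cd209g amounted to 27.9% to 61.1% of Cd209f in aged and 10.8% to 51.3% in young libraries.

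The promoters of this pair are shown because they carry the same elements at the same spacing. Cd209f is read from the minus strand (chr8:4105715-4106014) and Cd209g from the plus strand (chr8:4134486-4134785), from RefSeq GRCm38.p6, with capitals as above.
Cd209f: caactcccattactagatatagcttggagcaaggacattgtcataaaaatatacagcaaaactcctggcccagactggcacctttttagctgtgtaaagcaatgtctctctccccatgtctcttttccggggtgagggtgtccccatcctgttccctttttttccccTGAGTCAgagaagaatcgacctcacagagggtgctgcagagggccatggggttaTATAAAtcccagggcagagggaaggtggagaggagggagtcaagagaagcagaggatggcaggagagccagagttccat
Cd209g: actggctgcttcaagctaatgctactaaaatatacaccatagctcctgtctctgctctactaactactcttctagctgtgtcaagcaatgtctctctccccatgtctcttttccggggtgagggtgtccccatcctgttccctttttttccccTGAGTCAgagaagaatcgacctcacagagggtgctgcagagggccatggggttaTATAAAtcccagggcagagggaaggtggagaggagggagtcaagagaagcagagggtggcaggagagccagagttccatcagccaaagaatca

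The 2 windows were 93.1% identical over 260 bases. Each held the AP-1 letters, at position -83 of Cd209f and -97 of Cd209g, and a TATA box 54 bases further on, at -29 and -43. Of all promoters, 7.81% held the AP-1 letters and 13.6% the TATA letters. The genes are transcribed away from each other, with start sites 28.97 kb apart, and Cd209g is the 1 member on the plus strand.

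**Figure D3:**
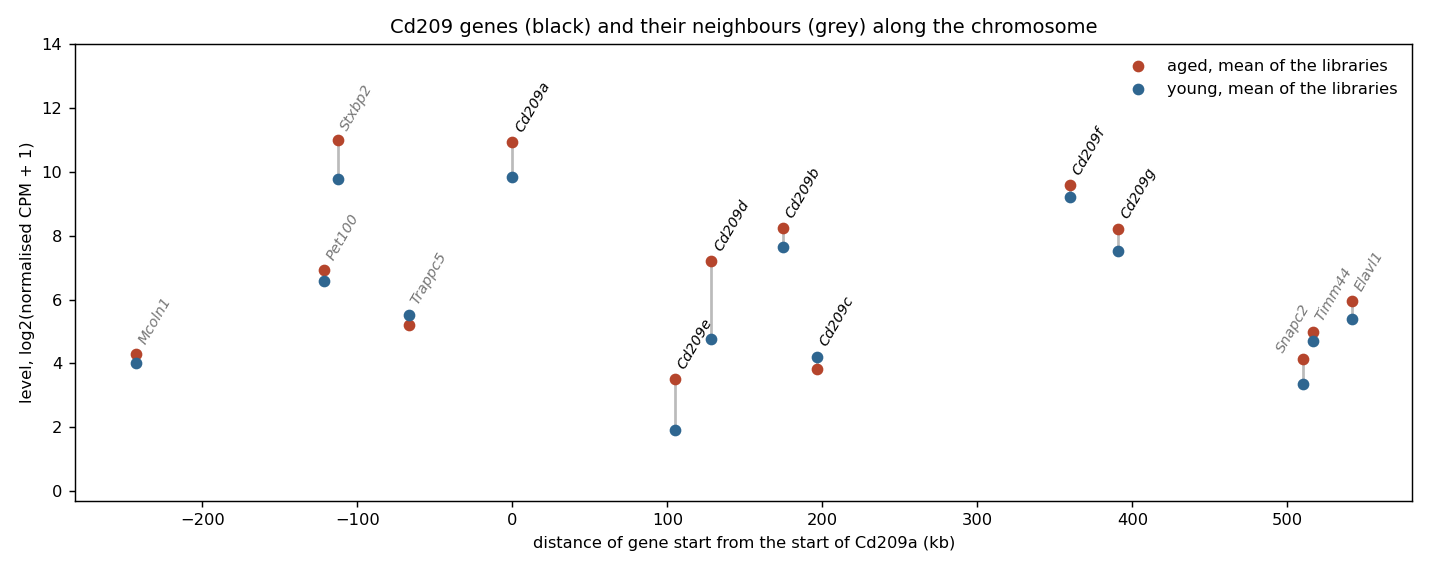
Log2(group mean of TMM-normalised CPM + 1) per gene along chromosome 8, by distance in kb of the gene start from that of Cd209a, for the Cd209 genes (black names) and tested neighbours of at least 10 CPM (grey names), with aged and young means joined by a line. Stxbp2 is the neighbour with the widest aged excess (2022 CPM in aged and 865.6 CPM in young libraries), and Cd209c is the member with the lower mean in aged libraries.

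Cd209b (Entrez 69165, chr8:3917655-3926841) varied widely in both groups. It had 136.9, 354.7, 238.5, 276.8 and 496.2 CPM in aged libraries 1 to 5. In young libraries 1 to 7 it had 20.6, 464.7, 237.4, 102.1, 207.7, 256.6 and 105.1 CPM. Young libraries 1 and 2, alike for Cd209a, were the lowest and the highest of the young group here. The means were 300.6 ± 134.6 CPM in aged and 199.2 ± 144.6 CPM in young libraries (SD, n = 5 and 7), with a log2 fold change of 0.59 ± 0.51 (SE; edgeR adjusted p = 0.999). Omitting aged libraries 1, 3 and 4 gave 1.08, omitting aged library 5 gave 0.31, and omitting young library 1 or 2 gave 0.36 or 0.92.

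Cd209c (Entrez 170776, SIGNR2, chr8:3940081-3954746) was low and had the only negative fold change among the 6 tested members. It had 10.1, 5.23, 5.36, 19.97 and 25.3 CPM in aged libraries 1 to 5 and 9.84, 14.2, 28.5, 46.1, 5.94, 0.410 and 17.8 CPM in young libraries 1 to 7. The log2 fold change was -0.41 ± 1.06 (SE; edgeR adjusted p = 0.999), with a turn of sign to 0.14 under limma with voom and to 0.04 without young library 4. It was -0.22 when aged libraries 1, 3 and 4 were omitted and -0.83 without aged library 5. Its estimated counts were not whole in 7 of 12 libraries, and 22.4% of its 50-base words occurred in other genes, none of them a Cd209 gene.

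Cd209e (Entrez 170780, SIGNR4, chr8:3847973-3854286) did not pass the filter. It had 909 counts in aged library 2 and 439 in aged library 4, and 618 counts in young library 4 and 1 in young library 3. The other 3 aged and 5 young libraries had 0 counts, which allows up to 0.129 CPM in the shallowest library. That limit is scaled by the library total without TMM factors, unlike the levels given here. Levels were 30.7 and 21.02 CPM in those aged libraries and 19.3 CPM in young library 4. These aged libraries were also the highest of their group in Cd209a, while young library 4 was the lowest of its group. Fitted without the filter, its log2 fold change was 1.92 (edgeR adjusted p = 0.768). This value rests on aged libraries 2 and 4 and young library 4, with group means of 10.3 CPM in aged and 2.76 CPM in young libraries.

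**Figure D4:**
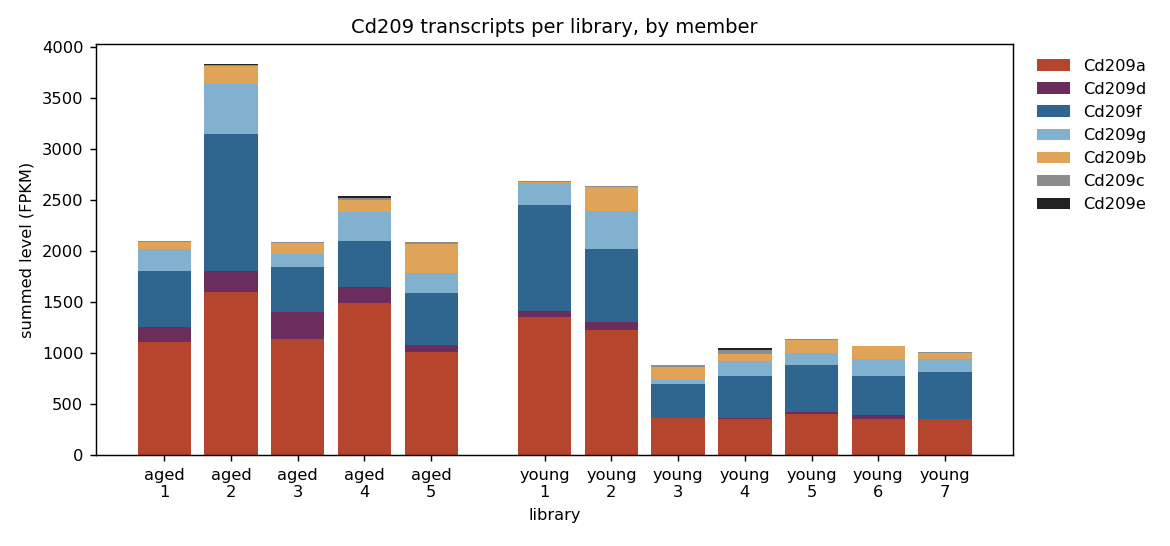
Summed FPKM of the 7 Cd209 genes in every library, stacked by gene, aged libraries left of young ones. The sums are 2083 to 3833 FPKM in aged and 884 to 2682 FPKM in young libraries, with young libraries 3 to 7 the lowest of all 12 and Cd209a the bottom segment of each bar.

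All members together had 2876, 4920, 3168, 3894 and 2533 CPM in aged libraries 1 to 5, against 3776, 3664, 1151, 1067, 1275, 1356 and 1255 CPM in young libraries 1 to 7. The sum, which does not depend on how reads were split between members, averaged 3478 ± 949.1 CPM in aged and 1935 ± 1223 CPM in young libraries (SD, n = 5 and 7). As 1 feature in the fit it had a log2 fold change of 0.85, between 0.69 and 1.08 over the alternatives. Without Cd209a and Cd209d the remaining sum was 986 to 2441 CPM in aged and 650.1 to 1731 CPM in young libraries. Shares of the family's FPKM differed between the group means. Cd209a made up 51.4% ± 6.6 of the summed FPKM in aged and 39.3% ± 6.8 in young libraries, and Cd209f 24.8% ± 6.5 in aged and 37.5% ± 5.5 in young libraries (SD, n = 5 and 7). Ranges of both shares overlapped, and Cd209d took 3.46% to 12.6% in aged and 0.465% to 3.96% in young libraries.

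Across the 12 libraries, levels of members were compared on log2(CPM + 1), as 15 pairs with 100000 permutations each. Cd209f and Cd209g, which share reads, had Pearson's r = 0.77 (permutation p = 0.0022, adjusted 0.0081) and Spearman's rho = 0.86 (permutation p = 0.0005, adjusted 0.0038), and r was 0.82 without the libraries farthest from the median of Cd209f and 0.75 within age groups. Cd209d and Cd209g, which share no 50-base word, had r = 0.72 (permutation p = 0.0056, adjusted 0.0167) and rho = 0.73 (permutation p = 0.0086, adjusted 0.0216), with r = 0.61 without the farthest libraries and 0.66 within age groups. Cd209d and Cd209f had r = 0.63 (permutation p = 0.0289, adjusted 0.0723) and rho = 0.80 (permutation p = 0.0024, adjusted 0.0101), with r = 0.45 without the farthest libraries, so the linear relation did not pass and weakened without them. No pair with Cd209b or Cd209c passed, with adjusted p of at least 0.178 over both measures.

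By rank over all 12 libraries, Cd209a had rho = 0.87 with Cd209d (permutation p = 0.0004, adjusted 0.0038), 0.80 with Cd209f (permutation p = 0.0027, adjusted 0.0101) and 0.76 with Cd209g (permutation p = 0.0058, adjusted 0.0173). No r over all libraries is given for these pairs, because the libraries fall into separate levels of Cd209a. The rho above span these levels as well. Within the 7 libraries at the higher level, Cd209a had r = 0.48 with Cd209d (exact permutation p = 0.281), 0.52 with Cd209f (exact permutation p = 0.19) and 0.59 with Cd209g (exact permutation p = 0.156). The corresponding rho were 0.54 (exact permutation p = 0.236), 0.36 (exact permutation p = 0.444) and 0.54 (exact permutation p = 0.236). The adjusted p for r over these 3 pairs was 0.281 for each, and over rho at least 0.354. Without the 2 libraries farthest from the median of Cd209a, r was -0.04 with Cd209d, 0.88 with Cd209f and 0.43 with Cd209g. These 7 libraries were set apart by Cd209a itself, which narrows its range and can lower r and rho. For that reason, and with only 7 libraries, a p above 0.05 does not show that these levels were unrelated. The 5 libraries at the lower level are too few for a correlation. They held 3.09 to 32.8 CPM of Cd209d, 346.8 to 497.6 CPM of Cd209f and 37.4 to 171.5 CPM of Cd209g.

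**Figure D5:**
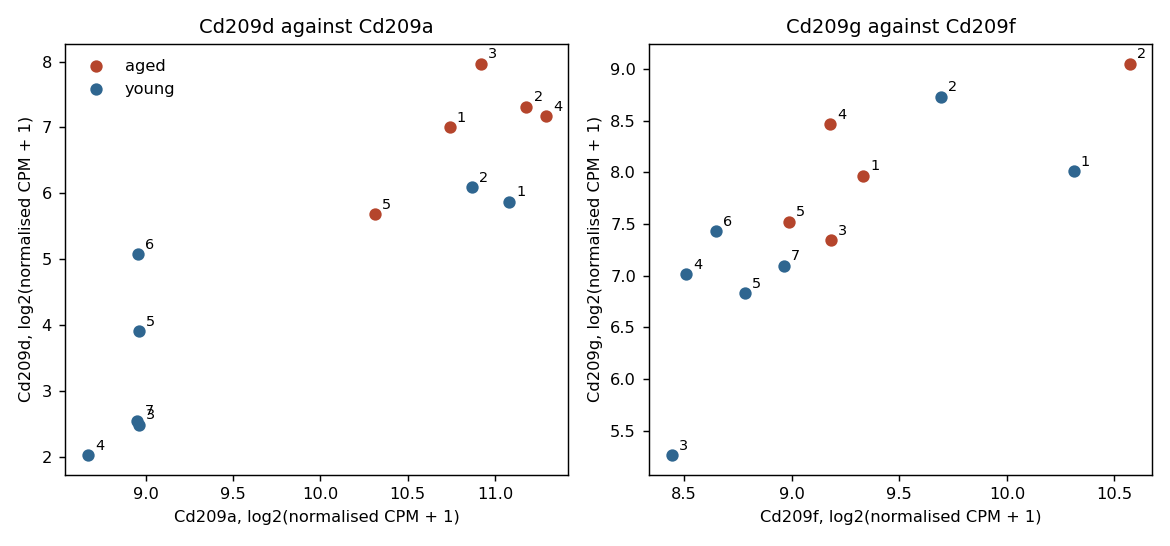
Log2(TMM-normalised CPM + 1) of Cd209d against Cd209a and of Cd209g against Cd209f, 1 point per library, numbered and coloured by age group. Cd209f and Cd209g rise together (r = 0.77), while Cd209a splits the young libraries into 2 at a higher and 5 at a lower level.

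Among 6687 other genes of at least 10 CPM, those whose levels ranked most like a member over the 12 libraries are given by Spearman's rho, as a description. For Cd209d they were Ms4a6b (0.91), Cacybp (0.90), Ccl7 (0.90), Polr2k (0.88) and Ndufa12 (0.88). For Cd209a they were Ndufa1 (0.85), Lgals1 (0.84), Rpn1 (0.84), Cacybp (0.83) and Sesn1 (0.83). Since 4 young libraries lay within 493.7 to 495.9 CPM, the ranks of Cd209a are close to ties, and 3 of its 5 genes stayed when CPM was scaled by totals over all genes. Cd209f was ranked most like Uqcr11 (0.89), Prune2 (0.87), Sc5d (0.85), Card19 (0.84) and Pdcd6 (0.83). Cd209g was nearest to Dynlt1c (0.90), Ube2v2 (0.84), Il18bp (0.83), Cnpy2 (0.80) and Uqcr11 (0.80). Cd209b was nearest to Cfap20 (0.85), Ppp2r5c (0.84), Morf4l2 (0.84), Cfap36 (0.82) and Zfp207 (0.81), and Cd209c to Arfgef1 (0.84), Atxn2 (0.83), Arid2 (0.82), Chd9 (0.80) and H2-Q4 (0.80).

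The cluster spans 394.3 kb. Of 37 annotated genes within 250 kb of it, 21 were in the table and 11 were tested. None was called, where 0.0105% of all tested genes were. A positive log2 fold change was found for 10 of the 11, where 49.5% of all tested genes had one. The median was 0.54, against -0.01 over all tested genes. Of the 11, 7 averaged over 10 CPM. Stxbp2, a regulator of granule exocytosis, averaged 2022 ± 804.3 CPM in aged and 865.6 ± 176.1 CPM in young libraries (SD, n = 5 and 7). Its log2 fold change of 1.22 ± 0.26 (SE) had an unadjusted p of 2.29e-04 and an adjusted p of 0.178 (edgeR), and it was the only neighbour with an unadjusted p under 0.05. Its aged libraries held 746.2 to 2859 CPM and its young ones 625.5 to 1199 CPM. The next 3 by p were Elavl1, an RNA-binding protein gene, at 60.7 ± 36.2 CPM in aged and 41.1 ± 18.6 CPM in young libraries, Map2k7, a kinase gene of the JNK pathway, at 9.92 ± 6.86 CPM in aged and 3.46 ± 3.63 CPM in young libraries, and Pet100, a chaperone gene of cytochrome oxidase, at 120.8 ± 55.8 CPM in aged and 95.0 ± 30.9 CPM in young libraries (SD, n = 5 and 7; edgeR adjusted p = 0.999 for each).

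Of 22 genes described as acting downstream of human DC-SIGN and mouse SIGNR3, 17 were tested and none was called. They had 9 positive and 8 negative fold changes and a median of 0.06. Of all tested genes, 0.0105% were called and 49.5% had a positive fold change, with a median of -0.01. With 1 call over all tested genes, no call in a short list does not show that its genes were unchanged. Rhoa, a GTPase of that pathway, averaged 405 ± 114.5 CPM in aged and 302.8 ± 60.1 CPM in young libraries (SD, n = 5 and 7; edgeR adjusted p = 0.957). Ptpn6, a phosphatase, averaged 95.5 ± 27.6 CPM in aged and 145.1 ± 46.5 CPM in young libraries (edgeR adjusted p = 0.939). Rac1, another GTPase, had 618.8 ± 190.1 CPM in aged and 528.5 ± 129.5 CPM in young libraries, and Lsp1, which binds DC-SIGN in human cells, 3.85 ± 4.91 CPM in aged and 12.98 ± 13.3 CPM in young libraries.

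Of ligands and partners, 9 of 13 were tested, with 5 positive and 4 negative fold changes, a median of 0.06 and no call. Over all tested genes, 49.5% of fold changes were positive, the median was -0.01 and 0.0105% were called. C1qa, a complement chain whose complex binds SIGNR1, averaged 1733 ± 853.4 CPM in aged and 2893 ± 608.6 CPM in young libraries (log2 fold change -0.74, edgeR adjusted p = 0.567). C1qb, another chain of that complex, had 6997 ± 2535 CPM in aged and 9569 ± 2339 CPM in young libraries. Itgam and Itgb2, the chains of the integrin Mac-1, had 85.4 ± 36.8 and 66.1 ± 23.3 CPM in aged, and 54.0 ± 25.8 and 39.3 ± 18.8 CPM in young libraries.

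Among other glycan-binding receptors, 19 of 27 were tested and none was called, with 9 positive and 10 negative fold changes. The shares over all tested genes were 0.0105% called and 49.5% positive. Clec4n (Dectin-2), a receptor for fungal mannans, averaged 722.2 ± 89.1 CPM in aged and 1066 ± 202.7 CPM in young libraries (log2 fold change -0.56, edgeR adjusted p = 0.448). Siglec1, a sialic acid receptor, had 61.3 ± 16.2 CPM in aged and 17.5 ± 18.9 CPM in young libraries (log2 fold change 1.81, edgeR adjusted p = 0.989). Clec10a, a galactose-binding receptor, had 313.4 ± 93.9 CPM in aged and 411.9 ± 81.4 CPM in young libraries, and Lgals8, a galectin gene, 61.6 ± 32.8 CPM in aged and 110.4 ± 47.1 CPM in young libraries.

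Of genes of the IL-4 and STAT6 axis and macrophage factors, 10 of 15 were tested and none was called. They had 5 positive and 5 negative fold changes and a median of -0.04. Over all tested genes, 0.0105% were called, 49.5% of fold changes were positive and the median was -0.01. Klf4, a transcription factor of macrophages, averaged 1441 ± 494.3 CPM in aged and 833.8 ± 287.1 CPM in young libraries (log2 fold change 0.79, edgeR adjusted p = 0.454). Maf, a factor of tissue macrophages, had 1449 ± 597.7 CPM in aged and 981 ± 265.8 CPM in young libraries (edgeR adjusted p = 0.884). Csf1r, the receptor for the main macrophage growth factor, had 797 ± 273.4 CPM in aged and 947.3 ± 167.8 CPM in young libraries.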

How the data were processed

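Per the submitters' processing notes, reads were processed with RSEM 1.2.12, HISAT2 2.0.4, DESeq2 1.4.5 and Bowtie2 2.2.5 with the GRCm38 (mm10) build; their roles and the annotation are not given in the sources used here. The authors deposited estimated counts and a second value per gene and library, without a named unit, read here as FPKM because it scales with the inverse of library total and transcript length. Symbols were restored from Entrez identifiers with RefSeq GRCm38.p6 (17244 of 17358 matched, 23 replaced).

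Estimated counts were rounded and fitted with edgeR 4.0.16 in R 4.3.3 (TMM, filterByExpr, quasi-likelihood with the installed default mode, threshold 0.05). Alternatives used DESeq2 1.42.0, limma 3.58.1, other filters and scales (pseudocount 1), and omitted libraries. Labels give no batch, sort marker or sex. Floors cover counting error only.

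Members and gene lists were chosen with earlier results of these data known. Named were all members, called list genes, up to 4 genes by p of each list that holds no markers and of the neighbours, and the 5 genes most like each member. A gene that this rule names is not reported here. Protein sequences are not used here. For the calls in the marker lists that follow, the share over all tested genes was 0.0105%. The other marker lists summed to 0 to 4.39 CPM in aged and 0 to 27.7 CPM in young libraries for endothelium (0 genes tested), 0.150 to 29.8 CPM in aged and 4.11 to 89.9 CPM in young libraries for B cells (1), 3.02 to 30.9 CPM in aged and 3.21 to 55.2 CPM in young libraries for T cells (3), 8.45 to 123.7 CPM in aged and 10.3 to 96.0 CPM in young libraries for neutrophils (3), 27.2 to 84.3 CPM in aged and 29.0 to 85.0 CPM in young libraries for oligodendrocytes (4), 11.7 to 136.8 CPM in aged and 14.6 to 65.9 CPM in young libraries for astrocytes (4), 20.3 to 100.5 CPM in aged and 0.393 to 43.5 CPM in young libraries for neurons (6), and 4.05 to 170.6 CPM in aged and 1.93 to 102.1 CPM in young libraries for fibroblasts or mural cells (1), with no gene of these lists called.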

Additional observations from a re-analysis of the deposited data

Results flagged for a closer look

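Among 16 sets of 5 aged or 7 young libraries (7 members and their sum, in each age group), 2 had a library far from the others, where chance gives such a library in about 1 of 20 sets of independent, normally distributed values. The sum is not independent of its members, and a gene at 0 in most libraries, as Cd209e is, exceeds the limit with any single library that has counts. Cd209f was at 1520 CPM in aged library 2, with the next aged library at 643.3 CPM, a gap that was 0.865 of the group's range (limit 0.71). Cd209e was at 19.3 CPM in young library 4, with the next young library at 0.0336 CPM, a gap of 0.998 of the range (limit 0.568). No cause was tested for either.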

How the results depend on the processing

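The number of genes called was 1 in the reported fit, 121 with DESeq2 (64 higher and 57 lower in aged libraries), 38 with edgeR's bias-adjusted mode (36 higher, 2 lower), 13 without a filter, 4 with a mean of at least 10 CPM, 3 with limma on log2(FPKM + 1) and 0 without aged libraries 1, 3 and 4. With single libraries left out it ran from 0 to 75: it was 75 without aged library 2, 3 without aged library 5, 2 without young library 1, 1 without aged library 3 or young library 6, and 0 without any other. The cause was not tested. Cd209d passed with DESeq2 (log2 fold change 2.42) and with the bias-adjusted mode (2.49). Cd209c turned to 0.14 with limma and voom, and ran from -0.83 to 0.0363 (without young library 4) with single libraries left out. Cd209f ran from -0.0329 (without aged library 2) to 0.65 with single libraries left out. Cd209a, Cd209b, Cd209g and the family sum kept their sign and their side of the threshold, where there was one, under every alternative run, at 0.97 to 1.43 for Cd209a. Of the 5 genes ranked most like Cd209a, 3 stayed with CPM scaled by totals over all genes, an alternative chosen after seeing the data. The median of all genes moved to -0.13 with voom, -0.17 with limma on log2(FPKM + 1) and -0.16 with the replicate block, against -0.01 in the reported fit. Same-numbered aged and young libraries did not deviate together (correlations from -0.04 to 0.09, none highest with its own number). These values show no pairing by number, but they cannot exclude a pairing that left no common deviation. With replicate number as a block 1 gene was called, and the log2 fold changes were 1.19 for Cd209a, 0.9975 for Cd209b, -0.67 for Cd209c, 2.95 for Cd209d, 0.32 for Cd209f, 0.90 for Cd209g and 0.88 for the sum. A count of 0, as for Cd209e in 3 aged and 5 young libraries, allows up to 0.129 CPM, scaled by the library total without TMM factors.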
